A study of Drosophila melanogaster with 4 samples.

Results

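Cytochrome P450 genes were followed in S2 cells, a line derived from Drosophila embryos with properties of macrophage-like blood cells, incubated for 4 h in KRB or in Schneider's medium. The members are the rows of the count table whose symbol starts with Cyp and a digit, 16 of the 2049 listed genes. All 16 are annotated as protein-coding P450 genes and none is a cyclophilin, a family whose symbols can start in the same way. Schneider's medium (labelled FED) is the growth medium, with amino acids and serum. KRB, a Krebs-Ringer bicarbonate buffer (labelled STARVATION), has neither and holds more sodium, and these differences cannot be told apart. RNA-seq libraries, 4 in number, were made from rRNA-depleted total RNA of 2 biological replicates for each medium, and a whole-number read count per gene was deposited. No genetic change was made in either group, and cells of 1 line in culture are the only model here.

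P450 enzymes carry a heme group with which they insert 1 oxygen atom into a substrate. Insect P450 genes fall into clans. Many enzymes of the CYP3 clan, with the Cyp6, Cyp9 and Cyp28 families, act on plant toxins, drugs and insecticides. CYP4 enzymes are known for the oxidation of fatty acids and related lipids, and CYP2 and mitochondrial enzymes include those that make the moulting hormone 20-hydroxyecdysone.

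The table is a selection. Only genes that the authors had found to differ between these same libraries are listed, so a difference in a member is partly a condition of its being there. Of 91 annotated P450 genes, pseudogenes included, 74 are not listed and were not analysed here. One more P450 gene, shade (shd), is listed under a symbol outside the rule and is described with the hormone genes further on. The listed members are 9 of 40 annotated genes of the CYP3 clan, 5 of 32 of the CYP4 clan, 2 of 12 of the mitochondrial clan and 0 of 7 of the CYP2 clan.

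Each library held between 1108029 and 2801713 reads on listed genes, and the full depth is unknown. The P450 genes took 4615 of these reads in Schneider's replicate 1 and 9205 in replicate 2, and 9075 and 13085 in KRB replicates 1 and 2. This was 0.417% (95% Wilson interval 0.405% to 0.429%), 0.381% (0.374% to 0.389%), 0.464% (0.454% to 0.473%) and 0.467% (0.459% to 0.475%) of the reads on listed genes. Intervals on reads cover counting error only, since amplified reads are not independent molecules. Normalized counts below are counts divided by the relative library size that edgeR's TMM method gave. In bulk RNA, fewer cells that use a gene and less of its RNA per cell cannot be told apart.

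Of the markers drawn up for plasmatocytes, the blood cells that S2 cells resemble, 3 of 16 were listed, eater, Sr-CI and Ppn, and all 3 were called lower in KRB, as were 53.6% of all tested genes. With relative log expression factors none of the 3 was called, beside 10.1% of all tested genes. Their summed normalized count was 2468 and 1405 in Schneider's and 943 and 548 in KRB, and its part in the P450 results was not tested. None of the markers drawn up for lamellocytes, fat body, gut, neurons or germ line was listed. Of the 4 crystal cell markers 2 were listed, peb, which was called higher with 4, 15, 120 and 212 reads, and PPO1, with 1, 1, 5 and 6 reads. Of the 3 muscle markers, Mlc2 was listed, with a log2 ratio of -1.05 ± 0.45 (SE, adjusted p = 0.0568).

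A total of 10 P450 genes rose in KRB and 5 fell, among 15 that passed edgeR's filter on low counts. The calls are those at an adjusted p under 0.05 in edgeR's quasi-likelihood test over all 1756 tested genes, of which 42.3% were called higher and 53.6% lower. The genes that rose were Cyp6a19, Cyp6a20, Cyp6a21, Cyp6a8, Cyp6d4, Cyp28d1 and Cyp317a1 of the CYP3 clan, Cyp4p3 of the CYP4 clan, and the mitochondrial Cyp12c1 and Cyp49a1. The genes that fell were Cyp6a22 and Cyp28d2 of the CYP3 clan and Cyp4d1, Cyp4d14 and Cyp4d2 of the CYP4 clan. Cyp6a21 passed this filter only through its KRB libraries and Cyp28d2 only through its Schneider's libraries. Each was thus tested only because of the medium where it was higher. The remaining member, Cyp4g1, had too few reads for this filter. With no filter it was called lower too, which made 10 higher and 6 lower members beside 44.8% and 49.7% of the 2049 genes then tested. At an adjusted p under 0.01, 8 members were higher and 3 lower, beside 35.6% and 36% of the 1756 genes. Changes are given as the log2 ratio of KRB over Schneider's with its standard error (SE). They compare shares of the sequenced RNA, so a rise need not mean more RNA per cell. The authors also reported that RNA levels were lower in cells in KRB. The median log2 ratio of the 15 tested members was 1.34, against -0.92 over all tested genes. Listed genes were selected for a deposited absolute log2 fold change of at least 1. A median over them, here and for the lists below, therefore mainly follows which direction holds more genes. For every one of the 15 both KRB libraries lay beyond both Schneider's libraries on the normalized scale, above for 10 and below for 5, as they did above for 42.5% and below for 56.5% of all tested genes. The smallest p that an exact two-sided permutation test allows with 2 libraries per medium is 0.333.

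**Figure D1:**
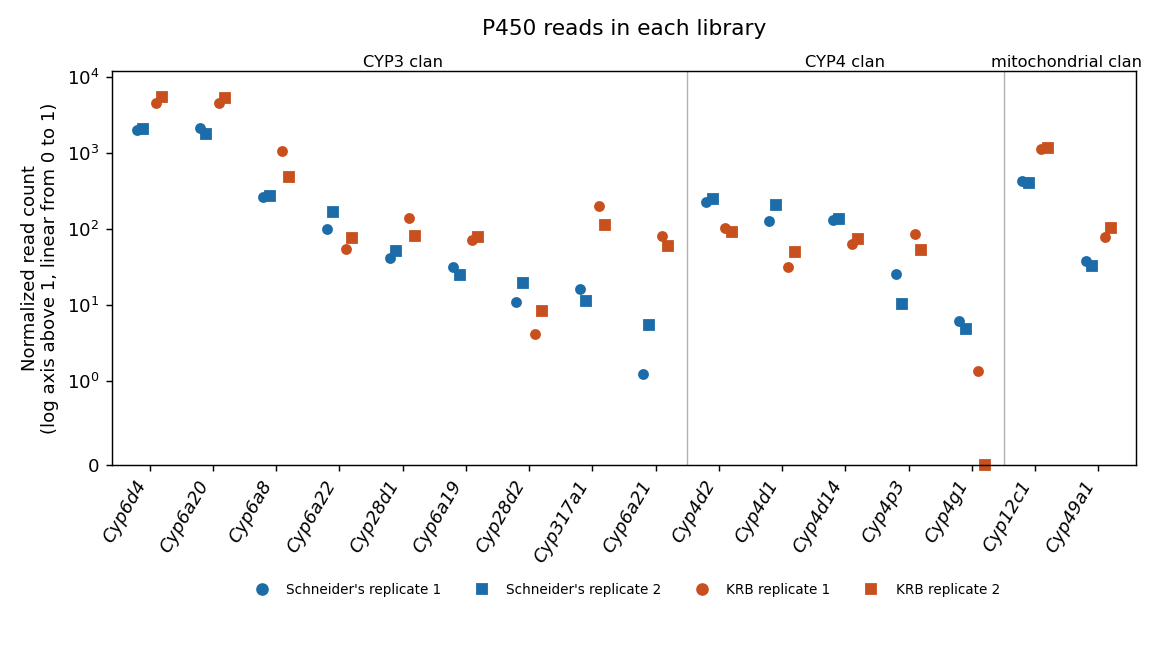
Normalized read count (vertical axis, log above 1 and linear from 0 to 1) of the 16 P450 genes in each of the 4 libraries, grouped by clan and ordered by the mean in Schneider's. Circles are replicate 1 and squares replicate 2, and the KRB points lie above the Schneider's points for 10 genes and below them for 6, Cyp4g1 included.

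The split between rises and falls depended on how the libraries were scaled, and the scaling rests on listed genes alone. Scaling by total counts left 3 members higher and 5 lower, beside 19.1% and 57.2% of all tested genes. Upper-quartile factors gave 10 and 2 (42.6% and 31.2% of all tested genes), relative log expression factors 10 and 1 (42.7% and 10.1%) and DESeq2 10 and 1 (41.8% and 5.07%). The median shift of the log2 ratio over all tested genes was -0.97, 0.46, 0.74 and 0.74 for these settings in this order. No tested member changed sign, and 0 of all 1756 tested genes did. Every listed gene has a deposited absolute log2 fold change of at least 1, a selection that leaves little room for a change of sign. Cyp6a21, Cyp317a1 and Cyp12c1 kept their call as higher and Cyp4d1 its call as lower under each of these 4 settings. How many of all tested genes did so was not counted. The settings with the fewest calls were total counts for rises (19.1% of all tested genes) and DESeq2 for falls (5.07%).

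**Figure D2:**
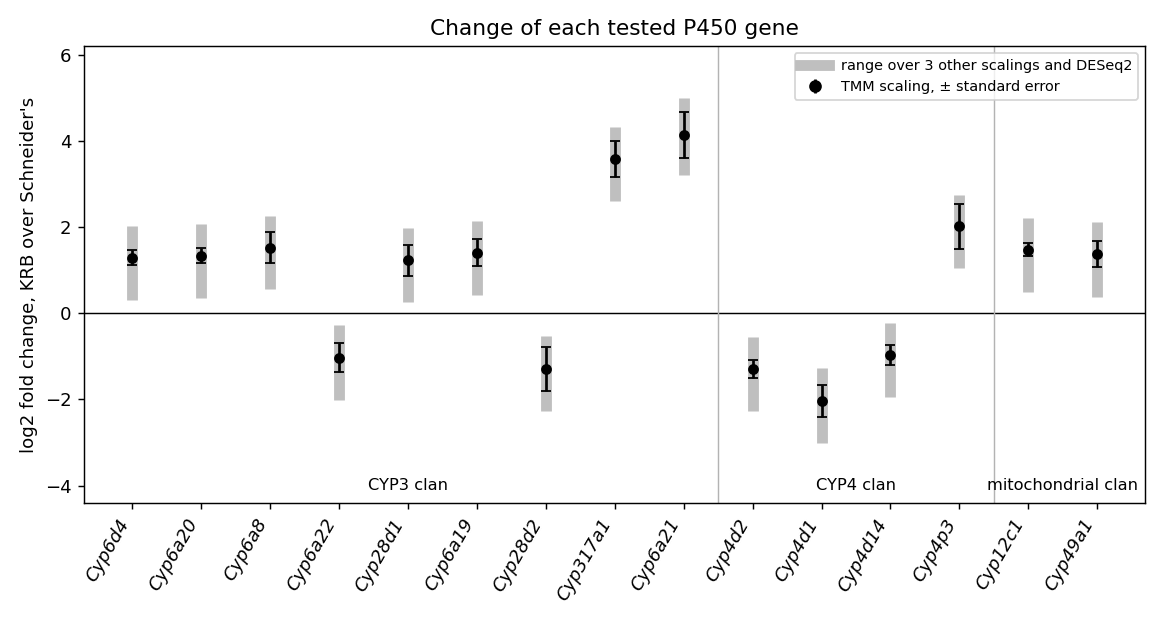
The log2 ratio of KRB over Schneider's (vertical axis) of the 15 tested P450 genes. Points are the values with TMM scaling, bars their standard error, and the grey bands span total-count, upper-quartile and relative log expression scaling and DESeq2; each band stays on 1 side of 0, and the bands of Cyp6a21 (3.20 to 5.0) and Cyp317a1 (2.61 to 4.31) lie farthest above it.

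Cyp6a20 and Cyp6d4 were the most counted P450 genes in every library. Cyp6a20, which has been tied to aggression between male flies, had 1778 and 3022 reads in Schneider's and 3427 and 5287 in KRB, or 2171 and 1797 against 4637 and 5380 normalized counts. This gave a log2 ratio of 1.34 ± 0.18 (SE, adjusted p = 0.0015). Cyp6d4, on 3R from 22698319 to 22700307, went from 2012 and 2099 to 4532 and 5510 normalized counts, a log2 ratio of 1.29 ± 0.17 (SE, adjusted p = 0.00146). In both genes the replicates lay close together and the groups were apart. The ratio of their reads stayed near 1 in all libraries, at 1.08 and 0.856 in Schneider's and 1.02 and 0.977 in KRB. Together they held 74.2% (95% Wilson interval 73.0% to 75.5%) and 71.2% (70.2% to 72.1%) of the P450 reads in Schneider's and 74.7% (73.8% to 75.6%) and 81.8% (81.1% to 82.4%) in KRB. With total-count scaling neither rise passed the test, at log2 ratios of 0.35 for Cyp6a20 (adjusted p = 0.0998) and 0.31 for Cyp6d4 (adjusted p = 0.0814).

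Cyp6a21 went from 1 and 9 reads in Schneider's to 59 reads in each KRB library, the largest rise among the members in the main test. On the normalized scale these were 1.22 and 5.35 against 79.8 and 60.04, a log2 ratio of 4.14 ± 0.53 (SE, adjusted p = 0.00142). Both KRB libraries stood far above both Schneider's libraries. Cyp6a21 passed the filter on low counts only through KRB, so a high KRB count was a condition of its being tested. With no filter its log2 ratio was 3.95. The size of the rise rests on few Schneider's reads, and leaving out single libraries gave log2 ratios from 3.67 to 5.67, each past the test. The value was 5.67 without Schneider's replicate 2, the library with 9 reads. Without Schneider's replicate 1, the library with 1 read, it was 3.67, below the 3.79 of Cyp317a1 in the same fit, so that the first rank was lost.

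Cyp6a8, an enzyme known to be induced by barbiturates and caffeine in adult flies, had 216 and 456 reads in Schneider's and 776 and 480 in KRB. The normalized counts were 264 and 271 against 1050 and 488, so that the KRB replicates differed 2.15-fold between themselves and the Schneider's replicates 1.03-fold. The log2 ratio was 1.52 ± 0.36 (SE, adjusted p = 0.00753), and it fell to 1.06 without KRB replicate 1, still past the test. Cyp6a19 had 31.7 and 25.0 normalized counts in Schneider's and 70.4 and 78.4 in KRB, a log2 ratio of 1.41 ± 0.31 (SE, adjusted p = 0.00568). The call of each was lost with total-count scaling, where the log2 ratio was 0.56 for Cyp6a8 and 0.43 for Cyp6a19.

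Cyp6a22 moved the other way. It had 81 and 280 reads in Schneider's and 40 and 75 in KRB, or 98.9 and 167 against 54.1 and 76.3 normalized counts, and a log2 ratio of -1.03 ± 0.34 (SE, adjusted p = 0.0267). The groups did not overlap, but the gap between them was smaller than that between the Schneider's replicates. The call was lost without Schneider's replicate 2, KRB replicate 1 or KRB replicate 2, at log2 ratios of -0.59, -0.62 and -1.27, and with upper-quartile factors (-0.56), relative log expression factors (-0.27) and DESeq2 (-0.26).

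All 5 listed Cyp6a genes and Cyp317a1 lie in 1 segment of 31.7 kb on chromosome arm 2R (14871366 to 14903095, BDGP6, the Dm6 assembly). In order along the arm they are Cyp6a22 (14871366 to 14873705, plus strand), Cyp6a19 (14877786 to 14879752, plus), Cyp6a20 (14882118 to 14884046, plus), Cyp6a21 (14885264 to 14886947, minus), Cyp6a8 (14887171 to 14889010, minus) and Cyp317a1 (14898312 to 14903095, plus). Cyp6a17, Cyp6a23 and Cyp6a9 of the same segment are not listed and were not analysed here, and Cyp6a9 overlaps 20.8% of the exon length of Cyp6a19 on the other strand. Cyp6a22 at one end fell and the other 5 rose. In the 50 kb on either side of the segment 2 genes are listed, NaPi-T, which was called lower (-2.07 ± 0.43, SE) beyond the Cyp6a22 end, and CG10257, which was called higher (1.27 ± 0.32, SE) beyond the other. Genes of such a cluster are related, and how the counting shared out reads that fit several of them is not given in the sources used here. Ratios of reads within a library do not depend on the scaling of libraries. Cyp6a20 had 22.0 and 10.8 times the reads of Cyp6a22 in Schneider's and 85.7 and 70.5 times in KRB. For Cyp6a8 over Cyp6a22 the ratio was 2.67 and 1.63 in Schneider's and 19.4 and 6.40 in KRB, and for Cyp6a19 over Cyp6a22 it was 0.321 and 0.150 against 1.30 and 1.03. In each of these 3 pairs the lower KRB ratio was 2.4 to 3.21 times the higher Schneider's ratio. Each pair sets a gene called higher over Cyp6a22, which was called lower. The direction of the ratios therefore follows from the choice of pairs and adds nothing to the calls.

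**Figure D3:**
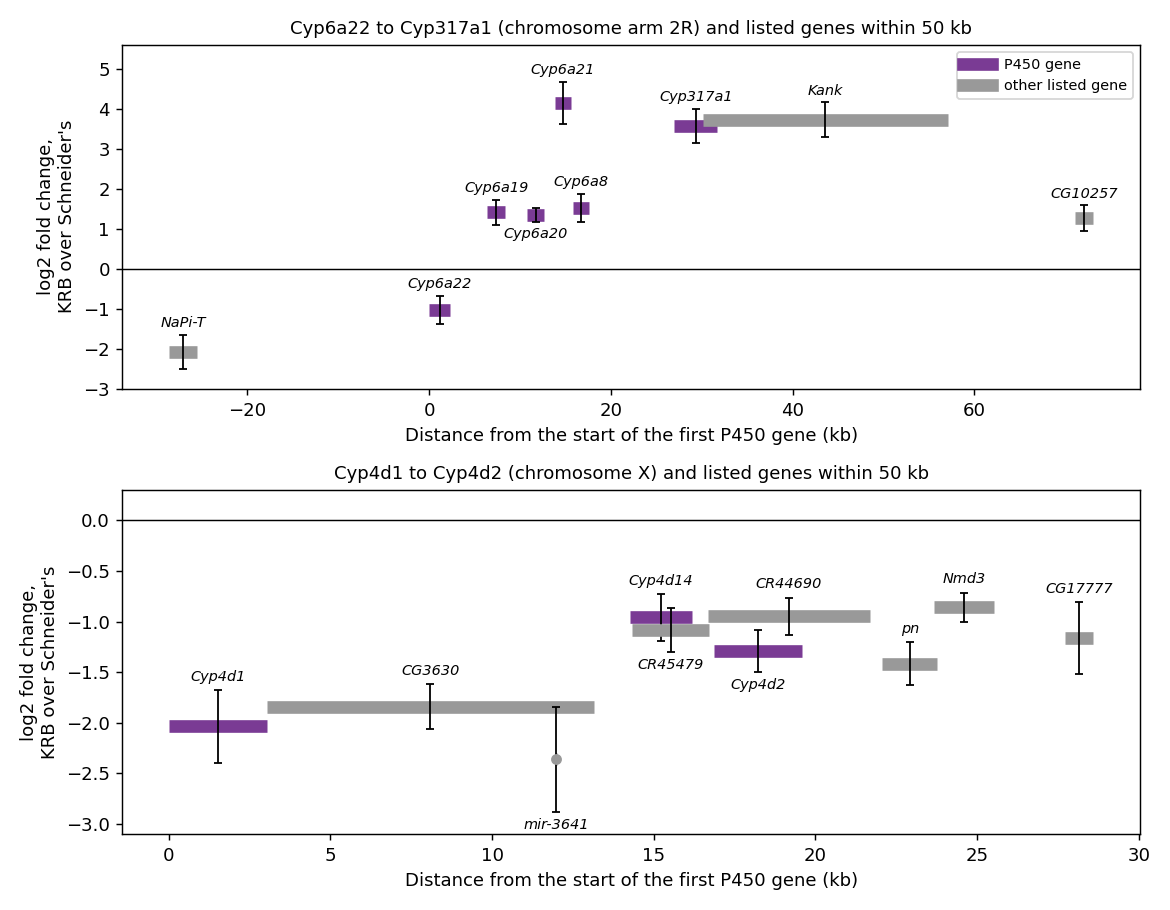
The log2 ratio (vertical axis, with standard error) of the listed and tested genes in the 2R segment with Cyp6a22 to Cyp317a1, in the X segment with Cyp4d1 to Cyp4d2 and in the 50 kb on either side of each, drawn at their distance from the start of the first P450 gene in kb. Purple bars are P450 genes and grey bars other listed genes, with mir-3641 as a point for its small size; in the 2R panel Cyp6a22 and NaPi-T lie below 0 and the other 7 genes above it, and in the X panel all 10 genes lie below 0.

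Cyp317a1 rose from 13 and 19 reads to 150 and 112, or from 15.9 and 11.3 to 203 and 114 normalized counts. This was a log2 ratio of 3.57 ± 0.42 (SE, adjusted p = 0.00115), and it stayed between 3.28 and 3.96 with single libraries left out. Its annotated exons share 32.6% of their 4078 nt with Kank, a gene of the opposite strand, named here after its values were seen. Kank had 28 and 34 reads in Schneider's and 338 and 238 in KRB, a log2 ratio of 3.73 ± 0.43 (SE). Cyp317a1 had 0.464, 0.559, 0.444 and 0.471 reads for each read of Kank in Schneider's replicates 1 and 2 and KRB replicates 1 and 2, a nearly constant share. The libraries were made with a stranded kit, but whether the counting used the strand is not given in the sources used here. If it did not, the reads of the 2 genes cannot be told apart over the shared exons.

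The 3 listed Cyp4d genes fell together. Cyp4d1 went from 103 and 343 reads in Schneider's to 23 and 48 in KRB, or from 126 and 204 to 31.1 and 48.8 normalized counts. Its log2 ratio of -2.04 ± 0.36 (SE, adjusted p = 0.003) was the largest fall among the tested members, and it lay between -2.38 and -1.57 with single libraries left out. Cyp4d2 had 227 and 246 normalized counts in Schneider's and 103 and 90.6 in KRB, a log2 ratio of -1.29 ± 0.21 (SE, adjusted p = 0.0023). Cyp4d14 had 132 and 135 against 63.6 and 73.3, a log2 ratio of -0.96 ± 0.23 (SE, adjusted p = 0.00879). For all 3 genes both KRB libraries lay below both Schneider's libraries. Relative log expression factors and DESeq2 ended the calls of Cyp4d2 (-0.55 under each) and of Cyp4d14 (-0.22 under each), and upper-quartile factors (-0.50) and the loss of KRB replicate 1 (-0.68) also ended that of Cyp4d14. As a share of all P450 reads the 3 genes held 8.60% (95% Wilson interval 7.83% to 9.45%) and 10.7% (10.1% to 11.3%) in Schneider's and 1.61% (1.37% to 1.89%) and 1.60% (1.40% to 1.83%) in KRB. This share does not depend on the scaling of libraries but also falls when the other members rise. The summed normalized count of the 3 genes was 485 and 585 in Schneider's and 198 and 213 in KRB, and that of all members was 5636 and 5475 against 12280 and 13320.

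The 3 Cyp4d genes lie within 19.6 kb of chromosome X (2159145 to 2178728), Cyp4d1 on the minus strand (2159145 to 2162180), Cyp4d14 on the minus strand (2173415 to 2175315) and Cyp4d2 on the plus strand (2176006 to 2178728). Their listed neighbours, named after their values were seen, also fell. All 7 listed genes that touch this segment were called lower with TMM scaling. So were the 3 tested ones of 4 listed in the 50 kb on either side, against 53.6% of all tested genes. The 7 are not separate stretches of the chromosome. The gene mir-3641 lies within the span of CG3630 on the same strand, and the antisense RNAs below overlap Cyp4d14 and Cyp4d2. CG3630, on the plus strand, starts 15 nt from the start of Cyp4d1, which runs the other way, and had a log2 ratio of -1.84 ± 0.23 (SE). The non-coding RNAs CR45479 and CR44690 run antisense to Cyp4d14 and Cyp4d2 and cover nearly all of their exons, 97.2% for Cyp4d14 with the edge of another gene and 98.7% for Cyp4d2. CR45479 had 133 and 286 reads in Schneider's and 55 and 81 in KRB, and Cyp4d14 had 0.812, 0.794, 0.855 and 0.889 reads for each of its reads in the same order of libraries. CR44690 had 339 and 689 against 171 and 193 reads, and Cyp4d2 had 0.549, 0.601, 0.444 and 0.461 reads for each. Per kb of exon, Cyp4d14 had more reads than CR45479 in all 4 libraries, with 63.8 and 134 against 56.0 and 120 in Schneider's and 27.7 and 42.5 against 23.1 and 34.1 in KRB. Cyp4d2 had more than CR44690 in Schneider's, with 75.4 and 168 against 70.5 and 143, and fewer in KRB, with 30.8 and 36.1 against 35.6 and 40.1. Without knowledge of strand, the sense and antisense reads of these pairs cannot be told apart. Cyp4d1 shares no exon position with another annotated gene.

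**Figure D4:**
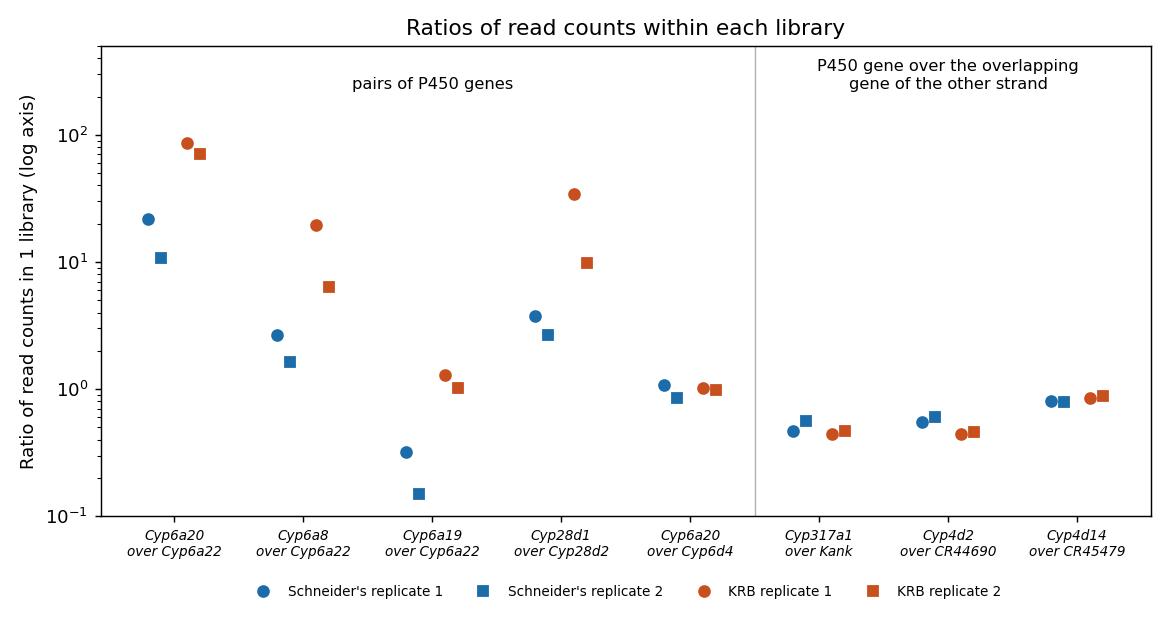
Ratio of the read counts of 2 genes in each library (vertical axis, log), for 5 pairs of P450 genes and for 3 P450 genes over the overlapping gene of the other strand. Circles are replicate 1 and squares replicate 2. The KRB ratios lie above the Schneider's ratios for the 3 pairs with Cyp6a22 and for Cyp28d1 over Cyp28d2. Each of these pairs sets a gene called higher over a gene called lower. Cyp6a20 over Cyp6d4 and the 3 ratios to overlapping genes vary at most 1.35-fold over the 4 libraries.

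The other CYP4 members went in different directions. Cyp4p3, on 2R from 9242320 to 9244410 inside the span of hig on the other strand but with no shared exon position, had 21 and 17 reads in Schneider's and 63 and 51 in KRB. The normalized counts were 25.6 and 10.1 against 85.2 and 51.9, a log2 ratio of 2.02 ± 0.52 (SE, adjusted p = 0.0107). The call was lost with total counts (1.04) and without KRB replicate 1 (1.79, adjusted p = 0.0638), and the value was 2.74 without Schneider's replicate 1 and 1.40 without Schneider's replicate 2. Cyp4g1, on X from 467057 to 469335, makes the hydrocarbons of the cuticle in oenocytes and is very abundant there. Here it had 5 and 8 reads in Schneider's and 1 and 0 in KRB, and it was left out by the filter. Scaled to library size, its reads were 8.95 times as many in Schneider's, with an exact 95% interval for counting of 1.35 to 380.

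The neighbours Cyp28d1 and Cyp28d2 moved in opposite directions. Cyp28d1, a gene linked to nicotine resistance in fly larvae, lies on 2L from 5210460 to 5212445, and Cyp28d2 from 5207267 to 5209345, both on the plus strand with 1114 nt between them. Cyp28d1 shares 3.15% of its exon length with CG7742 on the other strand, which is not listed. Cyp28d1 had 34 and 85 reads in Schneider's and 103 and 78 in KRB, or 41.5 and 50.6 against 139 and 79.4 normalized counts. This gave a log2 ratio of 1.23 ± 0.35 (SE, adjusted p = 0.0158), and the call was lost with total counts (0.27) and without Schneider's replicate 1 (1.10, adjusted p = 0.0537) or KRB replicate 1 (0.97, adjusted p = 0.0549). Cyp28d2 had only 9 and 32 reads against 3 and 8, or 10.99 and 19.0 against 4.06 and 8.14 normalized counts. It passed the filter on low counts only through Schneider's, so a higher count there was a condition of its being tested. Its log2 ratio of -1.30 ± 0.51 (SE, adjusted p = 0.0444) was the least firm call. It was lost with upper-quartile factors (-0.83), relative log expression factors (-0.54), DESeq2 (-0.53), a filter at a mean count of 10 (-1.31, adjusted p = 0.0528) and without Schneider's replicate 2 (-0.78), KRB replicate 1 (-0.74) or KRB replicate 2 (-1.89). For each read of Cyp28d2 there were 3.78 and 2.66 reads of Cyp28d1 in Schneider's and 34.3 and 9.75 in KRB. The ratio was thus higher in both KRB libraries, by 2.58 times at the least. This direction follows from the opposite calls of the genes and adds nothing to them.

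Both mitochondrial members rose. Cyp12c1, on 3L from 18684259 to 18686319, had close replicates, with 434 and 397 normalized counts in Schneider's and 1147 and 1155 in KRB. The log2 ratio was 1.47 ± 0.15 (SE, adjusted p = 0.000892), and it ranged from 1.41 to 1.66 with single libraries left out. With total counts the value was 0.49 and still past the test (adjusted p = 0.0276). Cyp49a1, on 2R from 10449350 to 10458892 within the span of Galphao on the other strand, had 37.9 and 32.1 normalized counts in Schneider's and 77.1 and 102 in KRB. This gave a log2 ratio of 1.37 ± 0.31 (SE, adjusted p = 0.00633), and this call was lost with total counts (0.38). The clans also differed as shares of the P450 reads. Mitochondrial members held 8.36% (95% Wilson interval 7.60% to 9.20%) and 7.83% (7.30% to 8.40%) in Schneider's and 9.97% (9.37% to 10.6%) and 9.44% (8.95% to 9.95%) in KRB. CYP3 members held 82.5% (81.3% to 83.5%) and 81.2% (80.4% to 82.0%) against 87.7% (87.0% to 88.4%) and 88.6% (88.0% to 89.1%). CYP4 members, most of whose reads in both media were those of the Cyp4d genes, held 9.17% (8.37% to 10.03%) and 10.96% (10.3% to 11.6%) against 2.31% (2.02% to 2.64%) and 1.99% (1.76% to 2.24%). The percentages of the media did not overlap in any of the 3 shares, and the CYP4 share alone was lower in KRB. For the mitochondrial share, the intervals of Schneider's replicate 1 and KRB replicate 2 did overlap. Shares of 1 total move against each other, so that these are not 3 separate differences.

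Levels were compared between genes as normalized counts per kb of annotated exon. In Schneider's medium, Cyp6a20 (1102 ± 147, SD, n = 2) and Cyp6d4 (1098 ± 32.9) led and could not be ordered, since their libraries overlapped. Cyp12c1 (220 ± 13.8), Cyp6a8 (150 ± 2.95) and Cyp4d2 (95.9 ± 5.47) followed, each apart from the next. Cyp4d14, Cyp4d1 and Cyp6a22, from 78.8 to 61.3, overlapped with their neighbours in the order. Cyp28d1 (28.5 ± 3.95) stood between them and a further overlapping run of Cyp6a19, Cyp49a1, Cyp4p3 and Cyp28d2 (14.8 to 8.97). Cyp317a1, Cyp4g1 and Cyp6a21 were lowest, at 3.33, 2.38 and 2.02. In KRB the first 4 places were unchanged, with 2781 ± 292 for Cyp6a20, 2682 ± 369 for Cyp6d4, 611 ± 2.89 for Cyp12c1 and 432 ± 223 for Cyp6a8. Cyp28d1 came next by its mean (67.6 ± 26.2). After it, 8 genes from Cyp6a21 (42.9 ± 8.58) to Cyp6a22 (30.1 ± 7.25) formed a run in which each overlapped the next, and the libraries of Cyp28d1 (49.1 and 86.2) overlapped those of Cyp4p3 (31.1 and 51.1) and Cyp317a1 (27.95 and 49.8) in it. Cyp6a21, among the 3 lowest in Schneider's, stood at the top of this run. Cyp4d1 (17.5 ± 5.49), Cyp28d2 (3.65 ± 1.73) and Cyp4g1 (0.297 ± 0.420) were lowest in KRB.

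Genes that work beside P450 enzymes were taken from lists drawn up by symbol. P450 enzymes draw electrons from the reductase Cpr, or from ferredoxin in mitochondria, and need heme, but none of the 17 genes listed for redox partners, heme synthesis and heme breakdown is in the table, and they were not analysed here. Conjugating enzymes act on the products of P450 reactions. Of the glutathione S-transferase symbols, 22 were listed and 21 tested, and 18 rose and 3 fell, with a median log2 ratio of 2.30, beside 42.3% higher, 53.6% lower and a median of -0.92 over all tested genes. With total counts 14 were higher and 3 lower (19.1% and 57.2% of all tested genes), and with relative log expression factors 18 and 1 (42.7% and 10.1%). The most counted, GstO3, had 1312 and 1926 reads in Schneider's and 4499 and 6544 in KRB. Those that fell were GstO1, GstT3 and GstZ1, with log2 ratios of -0.95 ± 0.27 (SE), -1.45 ± 0.20 (SE) and -0.86 ± 0.23 (SE). Of the 4 listed UDP-glycosyltransferases 3 were tested and 2 rose, beside 42.3% of all tested genes. These were Ugt86Dc and Ugt86Di, with log2 ratios of 3.45 ± 0.72 (SE) and 2.32 ± 0.55 (SE). Ugt86Dc passed the filter on low counts only through KRB. With total counts 1 of the 3 was called higher, beside 19.1% of all tested genes. Ugt86Dd, linked to nicotine resistance like Cyp28d1, had 85 and 6 reads in replicates 1 and 2 in Schneider's and 649 and 10 in KRB, so that the replicates of a medium differed far more than the media, and its log2 ratio of 3.18 ± 1.85 (SE, adjusted p = 0.135) did not pass the test. The exporter MRP, with 5302 and 8841 reads against 10637 and 17813, had a log2 ratio of 1.47 ± 0.21 (SE) and was the 1 listed gene of 11 epoxide hydrolases, sulfotransferases and transporters. Of 3 listed alpha-esterases, alpha-Est1 and alpha-Est8 rose and alpha-Est3 fell, beside 42.3% higher and 53.6% lower of all tested genes. The 2 rises were lost with total counts and the fall with relative log expression factors.

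Among 19 regulators drawn up for P450 genes, which include cnc, Keap1 and Hr96, the 3 listed ones are nuclear receptors linked to the ecdysone response, and all 3 rose, as did 42.3% of all tested genes. All 3 were also called higher with total counts, beside 19.1% of all tested genes. EcR, the ecdysone receptor, had 575 and 535 normalized counts in Schneider's and 1854 and 1642 in KRB, a log2 ratio of 1.66 ± 0.16 (SE, adjusted p = 0.000808). The log2 ratio was 2.27 ± 0.36 (SE) for Hr38 and 2.67 ± 0.43 (SE) for Hr3, whose counts were low, with 4 and 5 reads against 19 and 22. Hr3 passed the filter on low counts only through KRB. Of the 8 genes of ecdysone synthesis, only shd was listed, the mitochondrial P450 that turns ecdysone into 20-hydroxyecdysone. It had 5 and 26 reads in Schneider's and 30 and 35 in KRB, or 6.11 and 15.5 against 40.6 and 35.6 normalized counts. The log2 ratio was 1.70 ± 0.46 (SE, adjusted p = 0.0123), and the call was lost with total counts (0.74).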

How the data were processed

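The authors sequenced S2 RNA on a NextSeq500 after rRNA depletion, mapped single-end reads to Dm6 with STAR 2.4.0.1, obtained counts per transcript from an in-house Python script and compared the media with edgeR 3.24.3. The deposited whole-number counts per gene symbol are not normalized. The authors' own log2 fold change and unadjusted p-value were also deposited for each gene, and these columns hold only genes selected on both; they were used for no result. Replicates were compared and differed beyond sampling noise.

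The test was edgeR 4.0.16 under R 4.3.3 (filterByExpr, which left out 293 of 2049 genes, TMM, glmQLFit and glmQLFTest, two-sided, medium as the only term, Benjamini-Hochberg adjustment over 1756 genes, called under 0.05). The P450 genes, the lists and the tests were chosen with earlier results of these data known. All 16 members are named. From the lists, called genes are named together with those that miss the test. Of the glutathione S-transferases only the most counted and those that fell are named. Standard errors are the log2 fold change over the square root of F. Genes filtered out with up to 3 KRB reads got an exact 95% interval. Positions and exon lengths come from the BDGP6 annotation, release 115, which uses Dm6 coordinates. No sequence was printed, because no genome or sequence table was used here, and the planned motif search was not run. Alternatives were other scalings, DESeq2 1.42.0, edgeR's exact test, other filters and thresholds, a replicate block and leaving out each library. The scripts were tested on simulated counts in which most genes were unchanged and rises and falls were equal in number. The listed genes were all selected for a change, so this check does not cover the scaling of such a selection. Python 3.11.15, pandas 2.3.3, scipy 1.17.1 and matplotlib 3.10.9 served for summaries.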

Additional observations from a re-analysis of the deposited data

How the results depend on the processing

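In the main analysis 742 genes were higher and 942 lower, with 10 and 5 of the P450 genes and a median P450 log2 ratio of 1.34. Total counts gave 335 higher genes, 3 higher P450 genes and a P450 median of 0.35. Upper-quartile factors gave 547 lower genes, 2 lower P450 genes and a median of 1.79. Relative log expression factors gave 178 lower genes, 1 lower P450 gene and a median of 2.07. DESeq2 gave 89 lower genes, 1 lower P450 gene and a median of 2.07. A threshold of 0.01 left 8 higher and 3 lower P450 genes, beside 626 higher (35.6%) and 633 lower (36%) of all tested genes. Among the 9 tested members that share no exon position with another annotated gene, a restriction chosen after seeing the data, 7 were higher and 2 lower. Over all tested genes 42.3% were higher and 53.6% lower, and the shares among genes without such overlap were not computed. With each library left out in turn, 649 to 732 genes were higher and 549 to 898 lower, P450 genes numbered 8 to 10 higher and 2 to 5 lower, and the P450 median lay between 1.24 and 1.61; in these fits the lone library of a medium is assumed to vary like the others. The lowest counts of P450 genes, 8 higher and 2 lower, came without KRB replicate 1. With a replicate block 751 genes were higher and 1004 lower, nearly all of the 1756 tested, and the P450 calls were 10 and 5. Since nearly every gene was called, these P450 calls add nothing to those of the main analysis. The deviations of libraries with the same number correlated at 0.263, and nothing in the labels pairs them beyond the number. The tested P450 genes kept their direction under each alternative, which the authors' selection favours. Over the scaling settings 0 of all 1756 tested genes changed sign. Over 180 values of single P450 genes, 29 lost their call. Cyp4g1, Cyp28d2 and Cyp6a21 had fewer than 10 reads in at least 1 library, and no scaling could be checked against unlisted genes.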
